A study of Pinellia ternata with 12 samples.

Results

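Of the 208217 unigenes (gene-level units of a de novo assembly) measured in the leaf of *Pinellia ternata*, a medicinal herb of the Araceae family, 3 are the subject here. All 3 were annotated as factors that act on chromatin, through different routes, and other unigenes with chromatin names are described further below. They were a histone deacetylase HDT2 (TRINITY_DN67651_c1_g1), a high mobility group B protein (TRINITY_DN61440_c0_g1) and a NAP1-related histone chaperone (TRINITY_DN65710_c0_g2). They were chosen by unigene ID, with their higher level under heat already known. Their difference between heat and control is therefore described without a test. The wild-type seedlings of the heat group were kept at 40 ℃ for 24 h (day 1), and those of the control group were sampled at 25 ℃ with 0 h of heat (day 0). Leaf RNA of 3 biological replicates per group was sequenced as RNA-seq libraries and as miRNA-seq libraries. A treatment tag in the sample labels calls every sample heat-treated. The titles set the groups, and source and time match them. Heat and 1 more day of growth cannot be told apart in this design.

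Chromatin is DNA wound around histone proteins, and the enzymes and binding proteins that act on it set how readily a gene is read. HDT2 belongs to the HD2 histone deacetylases, a family particular to plants that takes acetyl groups off histone tails and in Arabidopsis is tied to gene silencing and to the nucleolus. High mobility group B (HMGB) proteins are abundant non-histone proteins that bend DNA through an HMG box, and NAP1-related proteins of Arabidopsis are chaperones that bind histones H2A and H2B and help to place or remove them.

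The table gives TPM (transcript abundance scaled by unigene length and to a common total), so the number of reads behind a value is unknown. Differences are log2 heat minus control of TPM + 1, with the standard error (SE) of the limma fit. It covered the 68978 unigenes that averaged 1 TPM or more, and its scale makes changes at low levels look smaller. Calls required a p below 0.05 after Benjamini-Hochberg adjustment together with a log2 difference beyond 1 in either direction. By this rule 6.0% of the tested unigenes were called higher under heat and 4.05% lower. For the heat label, 8 small heat shock protein unigenes were looked up, of which limma called all 8 higher, with a summed level of 1192 to 3718 TPM in heat libraries and 54.8 to 84.9 TPM in control libraries. A list of 4 chloroplast unigenes had a summed level of 242 to 321 TPM in heat libraries and 61.5 to 75.3 TPM in control libraries. Both lists were drawn from unigenes that the study listed as rising, so their direction was fixed by that choice. The usual photosynthesis markers were not among the names at hand, so the leaf label was not checked. In whole leaf, a higher level may come from more RNA per cell or from more cells of a type, and these cannot be told apart.

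The deacetylase HDT2 unigene was at 26.1, 30.8 and 27.1 TPM in the heat libraries and at 14.3, 12.2 and 9.52 TPM in the control libraries. The groups did not overlap, and the lowest heat value lay 1.82 times above the highest control value. The mean was 28.0 ± 2.51 TPM under heat and 12.0 ± 2.40 TPM in control (SD, n = 3 each), a ratio of 2.33. On the log2 scale the difference was 1.17 (SE 0.24), and 6.54% of the tested unigenes had a larger one. HDT2 had the smallest difference of the 3 chromatin unigenes. It was also the one nearest to the fold threshold of the calls. Without control replicate 3 the difference was 1.02, and under median-ratio rescaling of the libraries it was 0.93, under the threshold. With 5 instead of 1 added to TPM (a pseudocount of 5) it was 0.96, also under the threshold.

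The HMGB unigene, annotated as high mobility group B protein 3, was by far the most abundant, with 336, 326 and 282 TPM in the heat libraries and 135, 136 and 61.9 TPM in the control libraries. Among all tested unigenes, 0.445% had a higher heat mean and 1.26% a higher control mean. The groups did not overlap, although control replicate 3 stood at 0.457 times the mean of the other control libraries. Its mean was 315 ± 28.4 TPM under heat and 111 ± 42.4 TPM in control (SD, n = 3 each), a ratio of 2.84. The log2 difference was 1.58 (SE 0.32), and 2.65% of the tested unigenes had a larger one. Without control replicate 3 it was 1.21. The spread under heat was 9.03% of the mean, and in control it was 38.3%, mostly through that library. A stronger drop of control replicate 3 against the other control libraries was seen in 13.7% of the tested unigenes.

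The NAP1-related chaperone, annotated as NAP1-related protein 2, was at 40.1, 39.7 and 33.6 TPM in the heat libraries and at 16.0, 13.6 and 11.2 TPM in the control libraries. Again the groups did not overlap, with the lowest heat value 2.10 times the highest control value, the widest such gap among the 3. The mean was 37.8 ± 3.61 TPM under heat and 13.6 ± 2.41 TPM in control (SD, n = 3 each), a ratio of 2.78. The log2 difference was 1.42 (SE 0.24), and 3.76% of the tested unigenes had a larger one. Without control replicate 3 it was 1.30. This unigene stayed past the thresholds in all 14 alternative fits, HMGB in 13 of 14 and HDT2 in 8 of 14. These counts describe how near each lay to the thresholds of the calls. As the unigenes were chosen with their rise known, they are no test of the difference.

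**Figure D1:**
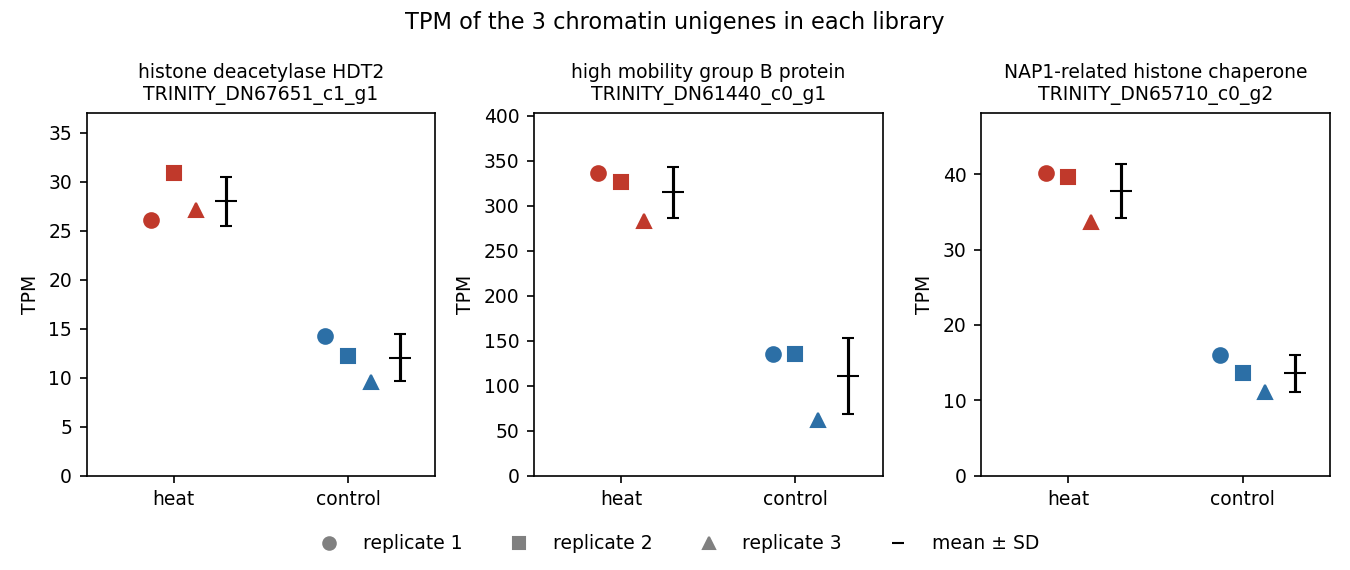
TPM (vertical axis, from 0, a different range in each panel) of the HDT2, HMGB and NAP1-related unigenes in the heat and control libraries. Points are single libraries with the replicate number as shape, and the bar beside them is the mean with its SD (n = 3). In each panel the 3 heat libraries lie above the 3 control libraries, and control replicate 3 is the lowest, at 61.9 TPM for HMGB.

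All 3 chromatin unigenes were past the thresholds, where 6.0% of all tested unigenes were called higher, which the choice of the unigenes nearly fixed. Likewise the groups of all 3 did not overlap, as was the case for 33.2% of all tested unigenes. Ordered by level, with TPM corrected for length, HMGB under heat came first and HMGB in control next, with no shared range. NAP1-related under heat (33.6 to 40.1 TPM) lay above HDT2 under heat (26.1 to 30.8 TPM) without overlap. In control the NAP1-related (11.2 to 16.0 TPM) and HDT2 (9.52 to 14.3 TPM) unigenes overlapped in range, although within each control library NAP1-related was the higher of the pair.

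The proportions among the 3 unigenes were compared within each library, where total scaling cancels. HMGB over NAP1-related was 8.37, 8.22 and 8.40 in the heat libraries and 8.44, 9.97 and 5.54 in the control libraries. The heat libraries were nearly alike and lay inside the range of the control libraries. HMGB over HDT2 was 12.9, 10.6 and 10.4 under heat and 9.43, 11.1 and 6.50 in control, which also overlapped. NAP1-related over HDT2 was 1.54, 1.29 and 1.24 under heat and 1.12, 1.11 and 1.17 in control. This ratio alone separated the groups, with all heat libraries above all control libraries by a small margin. No test was made on these ratios, since the same contrast chose the unigenes.

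**Figure D2:**
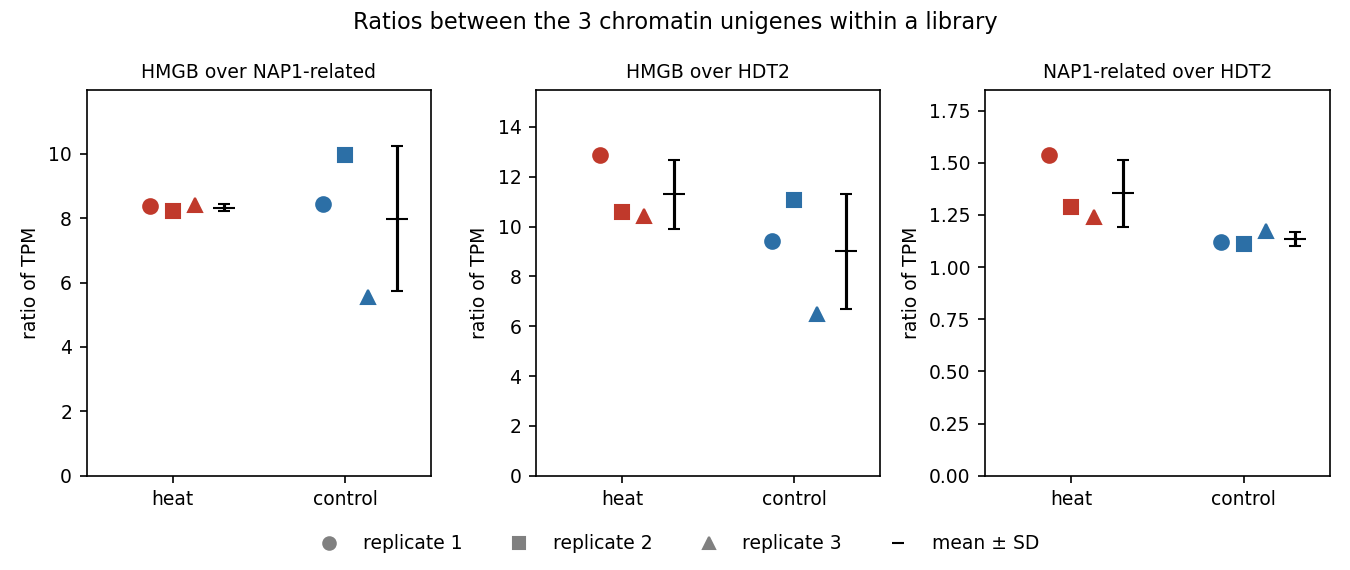
Ratio of TPM between pairs of the 3 chromatin unigenes in each heat and control library (vertical axes from 0), with points for libraries and bars for mean and SD (n = 3). HMGB over NAP1-related lies between 8.22 and 8.40 under heat and between 5.54 and 9.97 in control, whereas NAP1-related over HDT2 is 1.24 to 1.54 under heat and 1.11 to 1.17 in control.

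Control replicate 3 held the lowest control value of all 3 unigenes, by different amounts. Its level relative to the mean of control replicates 1 and 2 was 0.717 for HDT2, 0.457 for HMGB and 0.755 for NAP1-related. This library held the lowest control value in 42.2% of all tested unigenes and in 49.4% of those called higher under heat. The differences without this library, given above, were smaller for all 3, which follows from leaving out the lowest control value. Under heat no library was lowest in all 3, since replicate 3 was lowest for HMGB and NAP1-related and replicate 1 for HDT2. Replicate 2 gave the highest heat value of HDT2, and replicate 1 those of HMGB and NAP1-related.

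A Trinity component groups contigs that share sequence, and reads may be divided among its rows by the abundance estimate. The level of a single row is therefore uncertain where a component holds several. The HDT2 component held 4 rows, the HMGB component 3 and the NAP1-related component 5. Of the 9 rows that were not chosen, 5 had a mean of at least 1 TPM and were tested, and 4 were below it.

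In the HDT2 component the most abundant row was not the chosen one but TRINITY_DN67651_c1_g3, with 43.0, 48.5 and 38.6 TPM under heat and 20.6, 15.1 and 14.9 TPM in control. It rose under heat, with a log2 difference of 1.32 (SE 0.24) and a limma adjusted p of 0.00892, and was called in all 14 alternatives. A row with the same HDT2 name, TRINITY_DN67651_c1_g2, had 14.0, 15.4 and 15.3 TPM under heat and 7.04, 8.63 and 5.90 TPM in control. The groups did not overlap, but with a log2 difference of 0.97 (SE 0.24, limma adjusted p 0.0313) it missed the fold threshold and was not called. It passed without heat replicate 1 (1.01) and with a pseudocount of 0.1 (1.06). The last row, TRINITY_DN67651_c1_g4, had 0.960, 0.209 and 0.933 TPM under heat and was listed at 0 in every control library.

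Summed over its 4 rows, the HDT2 component reached 84.0, 95.0 and 82.0 TPM under heat and 41.9, 35.99 and 30.3 TPM in control, a log2 difference of 1.26. The chosen row took 31.0 to 33.1% of this sum in the heat libraries and 31.4 to 34.1% in the control libraries. These shares overlapped, so the division of the component among its rows did not separate the groups. The 2 rows that carry the HDT2 name stood on either side of the fold threshold, with log2 differences of 1.17 and 0.97, and their SEs overlap. Both rows come from the same libraries and may share reads, so this overlap is no test of a difference between them.

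The NAP1-related component showed a similar picture with a wider range. TRINITY_DN65710_c0_g4 had 18.9, 19.1 and 17.9 TPM under heat and 7.12, 6.07 and 2.61 TPM in control. It rose by 1.73 on the log2 scale (SE 0.32, limma adjusted p 0.00970), and its control replicate 3 was again the lowest. Its call was lost with no filter. TRINITY_DN65710_c0_g3 had 6.61, 5.41 and 5.45 TPM under heat and 2.34, 3.58 and 1.99 TPM in control, with a log2 difference of 0.93 and a limma adjusted p of 0.0568, and was not called. TRINITY_DN65710_c0_g5, the lowest tested row, had 1.15, 2.29 and 1.99 TPM under heat and 0.569, 0.971 and 0.503 TPM in control (log2 difference 0.73, limma adjusted p 0.152) and was not called either. The groups of these rows did not overlap, as in 33.2% of all tested unigenes.

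The summed NAP1-related component was at 67.6, 66.7 and 59.7 TPM under heat and at 26.2, 24.4 and 16.5 TPM in control, a log2 difference of 1.51. The chosen row made up 56.3 to 59.5% of it under heat and 55.7 to 67.8% in control. In the HMGB component the chosen row was nearly everything, with 99.6 to 99.9% of the summed TPM under heat and 99.5 to 99.8% in control. The log2 difference of that sum was 1.58, the same as for the row alone. Of the 5 tested rows, limma called 2 higher and 0 lower (6.0% and 4.05% of all tested unigenes), and 0 were lower at an unadjusted p under 0.05. Together with the chosen unigenes, all 8 tested rows of the 3 components had their lowest control value in control replicate 3, and rows of a component may share reads.

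**Figure D3:**
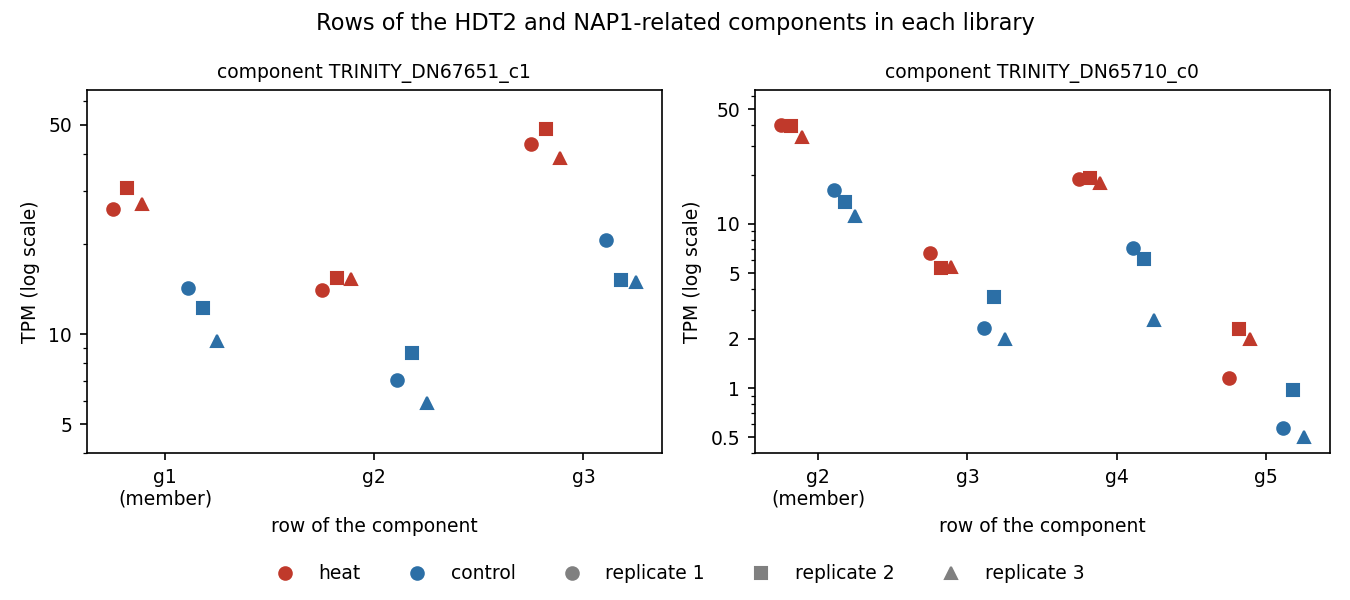
TPM (log scale) of the tested rows of the HDT2 component and the NAP1-related component, with heat libraries left of control libraries in each row and the replicate number as shape. Heat lies above control in every row. The chosen HDT2 row (g1) is below g3 in every library, and control replicate 3 of NAP1-related g4 is at 2.61 TPM.

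A single miRNA was a predicted regulator within these components in the part of the study's target predictions at hand. The study made these predictions for miRNAs it had itself called changed on these samples, so the fit here only describes a chosen miRNA. It was cpa-miR8154, named after papaya, with TRINITY_DN65710_c0_g3 as its predicted target, a row that lies beside the chosen chaperone row. Its mature sequence of 22 nucleotides is shown because such predictions rest on it. Capitals mark the seed (bases 2 to 8), although plant miRNAs pair with their targets along most of their length.
cpa-miR8154: cAGAGGAGgagaugaagaggga
No target site was read, as unigene sequences were not used here.

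The miRNA had 210, 736 and 109 RPM (miRNA reads scaled to a common library total) in the heat libraries and 68.2, 42.7 and 139 RPM in the control libraries, from 218, 353 and 161 reads under heat and 63, 87 and 121 reads in control. The groups overlapped, and heat replicate 2 stood far above all other libraries. The mean was 352 ± 337 RPM under heat and 83.2 ± 49.8 RPM in control (SD, n = 3 each). The log2 difference of RPM + 1 was 1.78 (SE 0.79, limma unadjusted p 0.0524, adjusted p 0.532), so it was not called, where an unadjusted p under 0.05 and a log2 difference over 1 called 2.13% of the 1597 miRNAs higher. Without heat replicate 2 the difference was 1.02. It passed the unadjusted threshold without control replicate 3 (2.23, limma unadjusted p 0.0409) and without heat replicate 3 (2.39, limma unadjusted p 0.0238). With all libraries kept, neither the miRNA nor its predicted target row was called, although the miRNA came from those the study had called.

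The 3 unigenes were then set among the chromatin unigenes that carry a name. This list held 13 unigenes, the 3 included, and came from unigenes that the study listed as rising on these samples, so its direction is not independent evidence. Limma called 8 of the other 10 higher and 0 lower (6.0% and 4.05% of all tested unigenes), which the choice from rises nearly fixed. At an unadjusted p under 0.05, 0 were lower, and their median log2 difference was 1.48, against 0.17 over all tested unigenes. The 10 include TRINITY_DN67651_c1_g2, a row of the HDT2 component that may share reads with the chosen row and was not called. The groups of all 10 did not overlap, as in 33.2% of all tested unigenes and 99.8% of those called higher, so the choice from rises nearly fixed this count. The differences of NAP1-related (1.42) and HMGB (1.58) lay near that median, and HDT2 (1.17) lay in the lower part of the range of 0.87 to 3.11. Control replicate 3 was the lowest control library in 3 of the 10, against all 3 of HDT2, HMGB and NAP1-related.

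Other parts of the deacetylation machinery included SAP18, a subunit of a histone deacetylase complex, with 20.0, 22.0 and 21.6 TPM under heat and 6.75, 5.59 and 5.97 TPM in control (TRINITY_DN51018_c0_g1). It rose by 1.65 on the log2 scale (SE 0.23, limma adjusted p 0.00243). SAP18 lay below HDT2 in every library, at 21.2 ± 1.08 TPM under heat and 6.10 ± 0.591 TPM in control (SD, n = 3 each), and was called in all 14 alternatives. A histone demethylase, the lysine-specific histone demethylase 1 homolog 2 (TRINITY_DN69059_c2_g3), was at 5.65, 4.53 and 8.96 TPM under heat and at 2.48, 3.26 and 3.01 TPM in control. With a log2 difference of 0.87 and a limma adjusted p of 0.0835 it was not called.

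The histones, which the chaperone family of the NAP1-related unigene binds, were represented by 4 named unigenes. Limma called all 4 higher, against 6.0% of all tested unigenes, which their choice from the study's rises nearly fixed. For the same reason the p-values of unigenes from this named list are a description and no independent evidence. H2AX (TRINITY_DN53829_c2_g2), the variant tied to DNA damage signalling, had 5.73, 10.3 and 9.41 TPM under heat and 2.42, 0.929 and 1.90 TPM in control, a log2 difference of 1.79 (limma adjusted p 0.00875). Its call was lost with a pseudocount of 5 (0.99) and with no filter (limma adjusted p 0.0551). A pair of H2A.6 unigenes rose by 1.36 (TRINITY_DN70741_c2_g1, limma adjusted p 0.0115) and 1.30 (TRINITY_DN53395_c0_g1, limma adjusted p 0.0159). The call of TRINITY_DN70741_c2_g1 was lost without control replicate 1 (limma adjusted p 0.0514), and also with a pseudocount of 5 or no filter. That of TRINITY_DN53395_c0_g1 was lost without control replicate 1 (0.0549), control replicate 2 (0.0615) or heat replicate 3 (0.0523), each a limma adjusted p, and with no filter. H4 (TRINITY_DN70995_c1_g1), part of the nucleosome core, had 5.29, 26.9 and 31.4 TPM under heat and 1.62 and 2.40 TPM in control replicates 1 and 3, and was listed at 0 in control replicate 2 (log2 difference 3.11, limma adjusted p 0.0139). This call was lost without heat replicate 2 (limma adjusted p 0.0584) or heat replicate 3 (limma adjusted p 0.0570), and with no filter. Histone genes occur in near-identical copies, so these levels are uncertain. All 4 histone unigenes were below the NAP1-related unigene in mean TPM in both groups.

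Among the remaining named chromatin unigenes, ATXR2 (TRINITY_DN67366_c0_g1), a histone lysine methyltransferase, was at 7.35 ± 0.628 TPM under heat and 0.740 ± 0.222 TPM in control (SD, n = 3 each). It rose by 2.27 on the log2 scale (limma adjusted p 0.00101). ARP9 (TRINITY_DN76051_c13_g3), an actin-related protein, rose by 1.60 (limma adjusted p 0.00818), with 8.24 ± 0.787 TPM under heat and 2.11 ± 0.893 TPM in control (SD, n = 3 each), and lost its call with a pseudocount of 5 (0.90). EBS (TRINITY_DN60748_c0_g1), a protein that reads histone methylation, had 33.9 ± 5.98 TPM under heat and 15.6 ± 2.89 TPM in control (SD, n = 3 each). Its log2 difference was 1.08 (limma adjusted p 0.0245), and its call was lost without control replicate 1 (adjusted p 0.0554), 2 (0.0967) or 3 (0.0624) or heat replicate 3 (0.0967), each from limma. It was also lost with a pseudocount of 5, with no filter and under the median ratio (log2 difference 0.84), so that EBS was called in 7 of 14 alternatives.

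A second list did not rest on the study's rises of unigenes, but on targets predicted for miRNAs that the study called changed on these samples. It held 22 predicted miRNA targets under Gene Ontology terms for histones, chromatin or nucleosomes, of which 16 were tested. Limma called 2 of the 16 higher (12.5%, against 6.0% of all tested unigenes) and 0 lower, and at an unadjusted p under 0.05 there were 3 higher and 0 lower. The median log2 difference was 0.13, against 0.17 over all tested unigenes and 1.17, 1.58 and 1.42 for HDT2, HMGB and NAP1-related. Of the 16, 14 were not called.

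The unigenes called in that list were TRINITY_DN68263_c0_g2, under a term for histone H3-K36 modification, and TRINITY_DN61165_c1_g3, under a term for heterochromatin at ribosomal DNA. The study annotates TRINITY_DN68263_c0_g2 as a putative lysine-specific demethylase and also lists it as rising. TRINITY_DN68263_c0_g2 had 18.0, 15.6 and 15.4 TPM under heat and 6.35, 7.87 and 4.12 TPM in control, a log2 difference of 1.32 (limma adjusted p 0.0151), which lost its call without control replicate 3 (limma adjusted p 0.0517), with a pseudocount of 5 and with no filter. TRINITY_DN61165_c1_g3 had 4.87, 6.30 and 7.93 TPM under heat and 2.25, 2.25 and 2.68 TPM in control, a log2 difference of 1.10 (limma adjusted p 0.0296). Its call was lost in 9 of 13 alternatives, with limma adjusted p of 0.0917, 0.0940 and 0.0704 without control replicates 1, 2 and 3, and 0.0743 and 0.108 without heat replicates 2 and 3. The most abundant of the 16, TRINITY_DN68381_c1_g1, carries a nucleosome assembly term, the kind of work the NAP1-related chaperone does. It was named after its values were seen and was at 74.1, 77.6 and 68.1 TPM under heat and 99.8, 93.6 and 79.0 TPM in control. With a log2 difference of −0.30 (SE 0.22) and a limma adjusted p of 0.413 it was not called, whereas the NAP1-related unigene differed by 1.42.

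**Figure D4:**
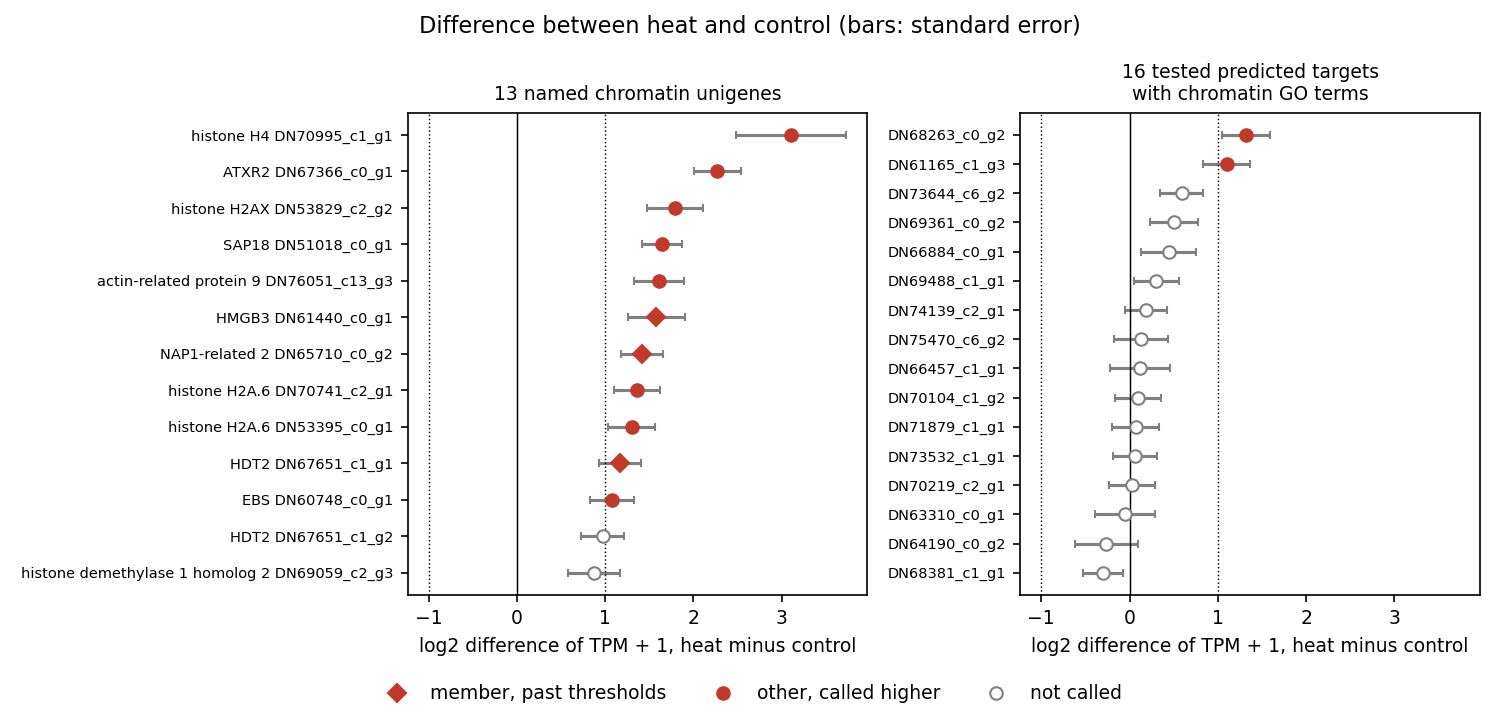
Log2 difference of TPM + 1, heat minus control (horizontal axis), with its SE, for the 13 named chromatin unigenes (left) and the 16 tested predicted targets with chromatin terms (right). Filled symbols are past the thresholds and open ones are not, diamonds mark HDT2, HMGB and NAP1-related, and dotted lines mark a log2 difference of 1 in either direction. The named unigenes, which were taken from rises, lie between 0.87 and 3.11, and the predicted targets lie between −0.30 and 1.32 with a median of 0.13.

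Finally, the named unigenes with the most similar pattern over the 6 libraries were looked up by Pearson correlation of log2(TPM + 1), without a test. The points fall into the heat and the control group, and the 309 named unigenes at hand were all listed by the study as rising, so high values follow from the choice. Of all tested unigenes, 3.11% had a correlation above 0.95 with HDT2, 1.90% with HMGB and 2.45% with NAP1-related. Nearest to HDT2 were an NADP-dependent malic enzyme (TRINITY_DN73998_c1_g1, 0.996), which makes NADPH from malate, RuvB-like 2 (TRINITY_DN67855_c0_g2, 0.996), an ATPase of chromatin remodelling complexes, and a CCCH zinc finger protein (TRINITY_DN69307_c1_g1, 0.995). RuvB-like 2 had 8.00, 10.5 and 8.54 TPM under heat and 4.20, 3.65 and 2.92 TPM in control, with its highest heat and lowest control value in the same libraries as HDT2.

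Nearest to HMGB were a chloroplast 50S ribosomal protein (TRINITY_DN70862_c1_g3, 0.996), the peroxisomal membrane protein PMP22 (TRINITY_DN39478_c1_g1, 0.995) and a DNA-directed RNA polymerase subunit (TRINITY_DN66650_c3_g3, 0.989). The chloroplast ribosomal protein had 7.68, 7.19 and 6.15 TPM under heat and 3.60, 3.74 and 1.47 TPM in control, with the same low control replicate 3 as HMGB. Nearest to NAP1-related were Sm D2 (TRINITY_DN51651_c0_g1, 0.996), a core protein of the spliceosome, a pentatricopeptide repeat protein (TRINITY_DN70345_c1_g1, 0.995) and the clock regulator PRR37 (TRINITY_DN70868_c2_g1, 0.995). PRR37 was at 77.6, 69.2 and 67.3 TPM under heat and at 33.9, 28.7 and 26.5 TPM in control, so that in each library it was above the NAP1-related unigene.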

How the data were processed

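The authors sequenced strand-specific leaf libraries, assembled unigenes de novo with Trinity and deposited TPM estimated with Salmon. No count model was fitted to TPM, and the depth behind a value is unknown. For the miRNA-seq libraries the deposited values were RPM of reads matched to known plant miRNAs. Dividing by the RPM of 1 read gave whole reads for 100% of 9582 values (tolerance 0.01 reads), with 479324 to 1475482 reads per heat library and 871814 to 2039055 per control library. edgeR 4.0.16 on these reads called 51 miRNAs higher and 147 lower.

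Groups came from the sample titles, 3 libraries each. Heat was compared with control by limma 3.58.1 in R 4.3.3 (eBayes with trend) on log2(TPM + 1) for unigenes averaging 1 TPM or more, and on log2(RPM + 1) for all 1597 miRNAs. A unigene call needed a Benjamini-Hochberg adjusted p below 0.05 with a log2 difference beyond 1 in either direction, and a miRNA call an unadjusted p under 0.05 with the same fold threshold. The fit was tested on simulated data. The p-values measure the spread between these libraries only.

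Alternatives were pseudocounts, filters, median-ratio and quantile scaling, robust eBayes, summed component rows, each library left out in turn and a replicate block. The text names the 3 unigenes, other rows of their components with at least 1 TPM on average and the 13 named chromatin unigenes. It also names called chromatin-term targets, the 3 named unigenes most similar to each of the 3 unigenes, and the miRNA predicted for a component row. Named outside this rule were TRINITY_DN67651_c1_g4, below 1 TPM on average, and TRINITY_DN68381_c1_g1, a chromatin-term target that was not called. Members and lists were chosen with earlier results of these data known. Fold changes and p-values of the study's own comparisons are not given here, although the lists and the miRNA rest on what the study had called. Unigene names and predictions were read from the parts of the study's tables at hand.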

Additional observations from a re-analysis of the deposited data

How the results depend on the processing

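The log2 differences of HDT2, HMGB and NAP1-related stayed positive in every alternative run. HDT2 was 0.93 and NAP1-related 1.18 under the median ratio. With a pseudocount of 5, HDT2 was 0.96 and NAP1-related 1.21. Leaving out each library in turn gave 1.02 to 1.29 for HDT2, 1.21 to 1.77 for HMGB and 1.30 to 1.54 for NAP1-related. Scaling moved the median of all tested unigenes from 0.17 to −0.03 (median ratio) and 0.02 (quantile), and the split of calls was 4142 higher and 2793 lower (59.7% higher) in the fit as reported, 2729 and 4184 (39.5%) under the median ratio and 2976 and 3590 (45.3%) under quantile normalization. Unigenes called higher numbered 1250 with a pseudocount of 5, 845 with no filter, 1875 at a mean of at least 5 TPM and 1468 to 6303 without 1 library. Those called lower numbered 1280, 804, 1552 and 1336 to 3751. Of the 13 named chromatin unigenes, 6 were called with a pseudocount of 5, 4 with no filter and 7 to 12 without 1 library, and of the 10 others 4, 3 and 5 to 9. Of the predicted targets with chromatin terms, 0 were called with a pseudocount of 5, 0 with no filter, 1 at a mean of at least 5 TPM, 1 under either scaling and 0 to 2 without 1 library. Of the other component rows, 1 was called with no filter. Without 1 library cpa-miR8154 ranged from 1.02 to 2.39, miRNAs called higher from 19 to 44 and lower from 63 to 171, and 70 were lower with a pseudocount of 10. Deviations from the group means correlated at −0.14, −0.06 and 0.14 in same-numbered libraries and at −0.16 to 0.25 in differently numbered ones. With 3 libraries per group, these values cannot show whether the numbers pair the libraries. A replicate block gave 3296 unigenes higher and 2479 lower, 11 of the 13 named chromatin unigenes and 2 component rows. The causes of these changes were not tested. TPM holds no depth, so the precision of low unigenes is unknown.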
